A study of Mus musculus with 12 samples.

Results

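The SOX transcription factor family was followed through 10 of its genes in sorted spiral ganglion neurons, which relay hearing from the inner ear to the brainstem. They were the rows of the deposited count table whose Ensembl identifiers map to Sox2, Sox4, Sox5, Sox6, Sox8, Sox9, Sox11, Sox12, Sox13 and Sox21, which is 10 of 25674 rows, and the glial gene Sox10 was set apart. Of these, 7 passed the filter on low counts and were tested among 14813 genes, whereas Sox2, Sox8 and Sox21 did not pass and are given by their counts.

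The study compared neurons with and without intact alleles of Isl1, which encodes a LIM homeodomain transcription factor. Control embryos carried Neurod1Cre and the red reporter Rosa26tdTOM, and the Isl1CKO embryos carried Neurod1Cre, Isl1loxP/loxP and Rosa26tdTOM, so that every embryo expressed Cre and the reporter. Cre came from a transgene built on the Neurod1 gene, the lines were of mixed C57BL/6/sv129 background, and embryos of either sex were taken at E14.5 from several litters that the labels do not link to samples. Each of the 6 libraries per group held 100 cells sorted for tdTomato from both inner ears of 1 embryo. The numbered samples are tagged as technical replicates in the labels but described as biological ones in the design text, and the p-values measure the spread between these libraries. Each group held libraries with Xist and almost no Y-linked RNA (controls 3 and 4, Isl1CKO 6) and libraries with the reverse, so the libraries of a group were not all from 1 embryo.

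Proteins of the SOX family bind DNA through a shared domain, the HMG box, which bends the DNA and lets other factors assemble on it. The family is divided into subgroups by sequence. SOXC factors (SOX4, SOX11 and SOX12) act in newly born neurons, SOXD factors (SOX5, SOX6 and SOX13) have no activation domain of their own and act with other SOX proteins, and SOXE factors (SOX8, SOX9 and SOX10) act in the otic epithelium, cartilage and the neural crest, from which glia arise. SOX2, of the SOXB1 subgroup, maintains neural and sensory progenitors, and SOX21, of the SOXB2 subgroup, mostly represses transcription.

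The stretch of coding sequence at the start of the HMG box is shown for the SOXC and SOXD genes because members of the same subgroup had different results. The sequences come from the GENCODE M21 transcripts on GRCm38, run 5′ to 3′ on the minus strand, and lie within a single exon each. Capitals mark the 32 of 60 bases that are identical in all 6 genes.
Sox4 (chr13:28952782-28952841): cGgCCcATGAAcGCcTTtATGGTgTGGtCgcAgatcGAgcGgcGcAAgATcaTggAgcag
Sox11 (chr12:27342199-27342258): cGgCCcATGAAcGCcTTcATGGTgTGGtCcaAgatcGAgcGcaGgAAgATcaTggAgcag
Sox12 (chr2:152397516-152397575): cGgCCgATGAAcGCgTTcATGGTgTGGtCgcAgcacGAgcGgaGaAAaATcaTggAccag
Sox5 (chr6:143841214-143841273): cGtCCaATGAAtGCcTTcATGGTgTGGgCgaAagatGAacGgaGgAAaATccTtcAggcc
Sox6 (chr7:115489703-115489762): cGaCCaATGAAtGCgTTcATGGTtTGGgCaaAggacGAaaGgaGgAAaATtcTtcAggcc
Sox13 (chr1:133385506-133385565): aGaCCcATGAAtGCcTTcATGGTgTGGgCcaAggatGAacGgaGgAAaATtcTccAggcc
Within the SOXC genes this stretch was identical at 83.3% to 90.0% of its bases, and within the SOXD genes at 86.7% to 88.3%. Across the 2 subgroups 61.7% to 71.7% of the bases were identical. Over the whole transcripts of all 45 pairs of the 10 genes, the longest run of identical bases was 48, between Sox4 and Sox11, and 3 pairs shared a run of 30 or more. The labels name a sequencing kit of 75 cycles, so the runs shared by these genes were shorter than that.

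Total counts ran from 11895603 to 13857480 per library, and levels are given as CPM, the count scaled to a common library size after TMM normalization. The floor of 3 counts corresponded to 0.219 to 0.25 CPM. Isl1 itself, the targeted gene, averaged 1391 ± 184 CPM in the Isl1CKO libraries and 1538 ± 217 CPM in controls (SD, n = 6), which gives -0.15 on the log2 scale (edgeR adjusted p = 0.460). Whole-gene counts do not resolve the floxed segment, so the genotype rests on the labels and each direction below is that of libraries labelled Isl1CKO. The libraries Isl1CKO 2, 3 and 5 held both Xist and Y-linked transcripts, at 62.9 to 132 CPM and 35.7 to 87.3 CPM on average, although each sample is described as 1 embryo. The fold change of each called member is therefore also given without them, which leaves 3 libraries against 6. Ratios, marker sums and the genes of other lists are given with all libraries only. All 11 neuron markers were present, summing to 12554 to 14337 CPM in the Isl1CKO libraries and 14371 to 16518 CPM in controls, groups that did not overlap. The markers moved both ways, with 3 called higher (Slc17a6, Stmn2 and Rbfox3) and 3 lower (Nefm, Nefl and Elavl4). Nefm averaged 881 CPM in the Isl1CKO libraries against 3337 CPM in controls, and Nefl 580 against 1505 CPM. The lower sum is therefore not a fall of neuron markers in general.

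Levels of different genes were compared per kilobase of exon. In controls Sox11 stood highest, at 236 ± 104 CPM per kilobase, followed by Sox4 at 49.8 ± 4.36 (SD, n = 6). Every control library of Sox11 lay above every control library of Sox4, and every one of Sox4 above all those of Sox9 and Sox12. Sox9, at 12.9 ± 3.26, and Sox12, at 12.4 ± 4.01 CPM per kilobase (SD, n = 6), did not differ beyond their spread. Below them came Sox13 (1.17), Sox5 (0.512) and Sox2 (0.298), whose ranges overlapped, and Sox8, Sox6 and Sox21 at 0.0698 CPM per kilobase or less. In the Isl1CKO libraries the order began with Sox11 (307 ± 28.4), Sox4 (63.8 ± 6.93) and Sox12 (6.39 ± 0.893), and Sox9 came after them at 3.06 ± 2.31 CPM per kilobase (SD, n = 6). Sox11 held 67.4% to 86.7% of the summed per-kilobase level of the 10 genes in controls and 78.2% to 82.5% in the Isl1CKO libraries, so a single SOXC gene made up most of the SOX transcripts in both groups.

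**Figure D1:**
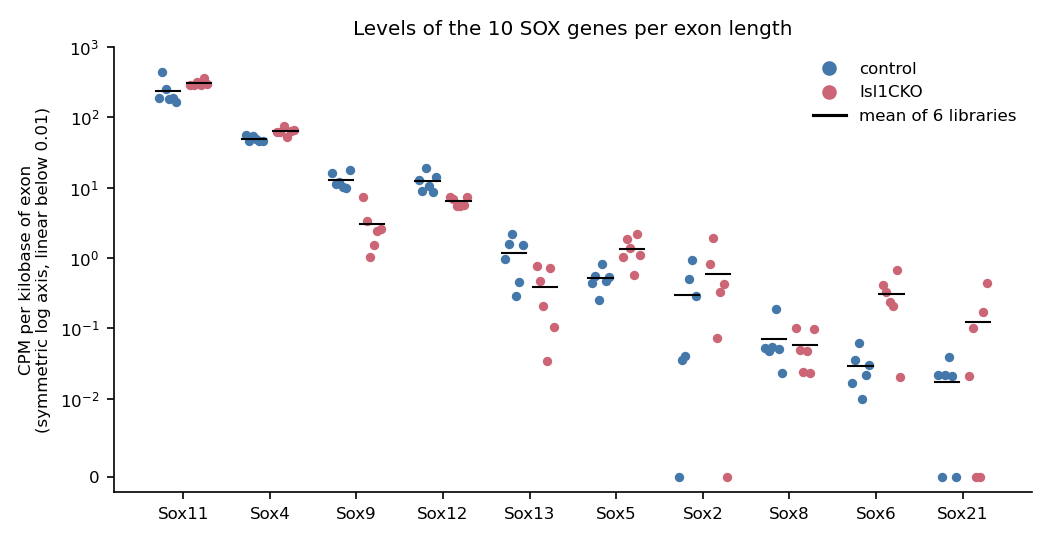
Level of each of the 10 SOX genes in CPM per kilobase of exon (symmetric log axis), with 1 point per library and a line at the mean of 6 libraries in control and Isl1CKO. Sox11 and Sox4 lie above the other 8 genes in every library, and Sox9 and Sox12 points of the Isl1CKO libraries lie below those of the controls.

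Of the tested members 5 passed an adjusted p of 0.05 in edgeR's quasi-likelihood test, where 10.2% of all tested genes did (1511 of 14813). Sox4, Sox5 and Sox6 were higher in the Isl1CKO libraries, a direction called for 5.01% of all genes, and Sox9 and Sox12 were lower, a direction called for 5.19%. The median log2 fold change was 0.36 over the 7 tested members and 0.0045 over all tested genes. Sox6 passed the filter largely through the group in which it was high, with 10 or more counts in 5 Isl1CKO libraries and 1 control library, so the number of members called is a description. Without Isl1CKO 2, 3 and 5, Sox9 alone was called among 8 tested members, and 4.73% of all genes were (2.26% higher and 2.47% lower).

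**Figure D2:**
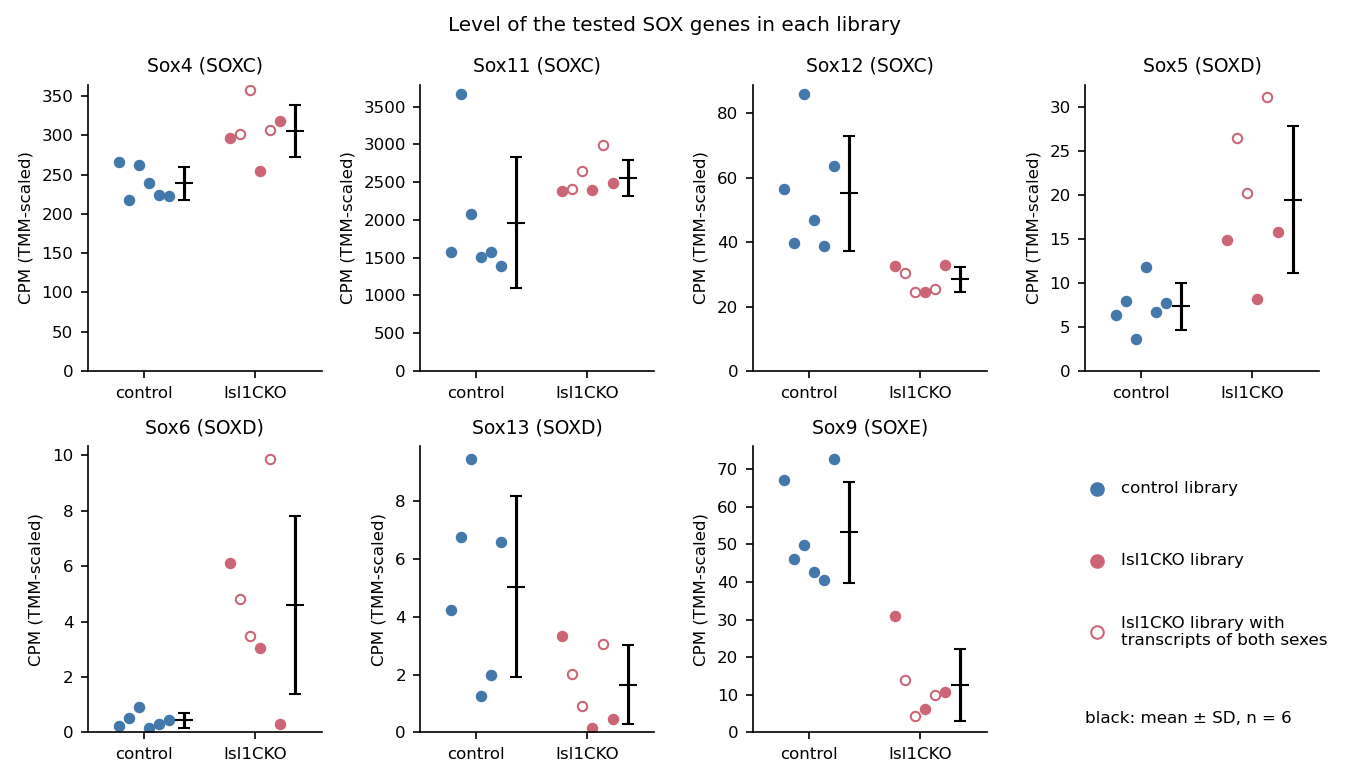
Level of the 7 tested SOX genes in each library, in CPM on linear axes, with open circles for the Isl1CKO libraries that held transcripts of both sexes and black bars for the mean ± SD (n = 6). The groups do not overlap for Sox12 and Sox9, and 1 Isl1CKO library lies within the control range for Sox4, Sox5 and Sox6.

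Among the SOXC genes, Sox4 (ENSMUSG00000076431, chr13:28948919-28953713, minus strand, 1 exon) supports the survival and differentiation of young neurons. It measured 296, 301, 358, 255, 306 and 318 CPM in Isl1CKO 1 to 6. Controls 1 to 6 measured 267, 218, 262, 239, 224 and 223 CPM. All Isl1CKO libraries except Isl1CKO 4 lay above the highest control. The means were 306 ± 33.2 and 239 ± 20.9 CPM (SD, n = 6), so that Sox4 rose 1.28-fold (log2 0.36, SE 0.085; edgeR adjusted p = 0.0141). The call held with each library left out in turn and was lost without Isl1CKO 2, 3 and 5 (log2 fold change 0.27, edgeR adjusted p = 0.183). The annotation places 2616 of its exon bases under Gm26735, a noncoding gene on the opposite strand that was not analysed here, and the strand setting of the counting is not given in the sources used here, so its counts are uncertain.

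Sox11 (ENSMUSG00000063632, chr12:27334264-27342574, minus strand, 1 exon), a close relative of Sox4 that activates genes of neuronal differentiation, was the most abundant SOX transcript. It measured 2380, 2407, 2654, 2404, 2990 and 2494 CPM in Isl1CKO 1 to 6. The 6 controls, in order, measured 1577, 3666, 2074, 1503, 1576 and 1392 CPM. Control 2 lay above every Isl1CKO library and the other 5 controls lay below every one of them. With all libraries the difference was 0.38 on the log2 scale, SE 0.20, and did not pass (edgeR adjusted p = 0.270). Without control 2 it was 0.65 and passed (edgeR adjusted p = 8.40e-04), where 9.69% of all genes were called and 4.84% were called higher, so control 2 decides this call. It was the 1 setting of 24 in which Sox11 was called.

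Sox12 (ENSMUSG00000051817, chr2:152393611-152398063, minus strand, 1 exon), the SOXC member with the weakest activation domain, moved the opposite way to Sox4. It measured 32.5, 30.4, 24.5, 24.6, 25.5 and 32.9 CPM in Isl1CKO 1 to 6. In controls 1 to 6 it measured 56.4, 39.8, 85.9, 46.9, 38.8 and 63.7 CPM. The groups did not overlap, as was so for 6.78% of all tested genes (3.65% with the Isl1CKO libraries lower), and the Isl1CKO libraries were the more uniform. Sox12 fell 1.94-fold, from 55.2 ± 17.9 to 28.4 ± 3.98 CPM (SD, n = 6), or -0.96 in log2 units, SE 0.19 (edgeR adjusted p = 0.00410). Without Isl1CKO 2, 3 and 5 the log2 fold change was -0.88 and the call was lost (edgeR adjusted p = 0.0849).

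The balance within the SOXC subgroup can be read from counts of the same library, without scaling between libraries. Per 100 Sox4 counts there were 6.86 to 11 Sox12 counts in the Isl1CKO libraries, with a median of 9.88. In controls there were 17.3 to 32.8, with a median of 20.4. The ranges did not overlap, so relative to Sox4 each Isl1CKO library held less Sox12 than each control. This ratio puts a gene that fell over a gene that rose, so it repeats the results of Sox12 and Sox4. Per 100 Sox11 counts there were 0.854 to 1.37 Sox12 counts in the Isl1CKO libraries and 1.09 to 4.57 in controls, and the overlap came from control 2. For Sox4 per 100 Sox11 counts the ranges of 10.2 to 13.5 and 5.95 to 16.9 overlapped.

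**Figure D3:**
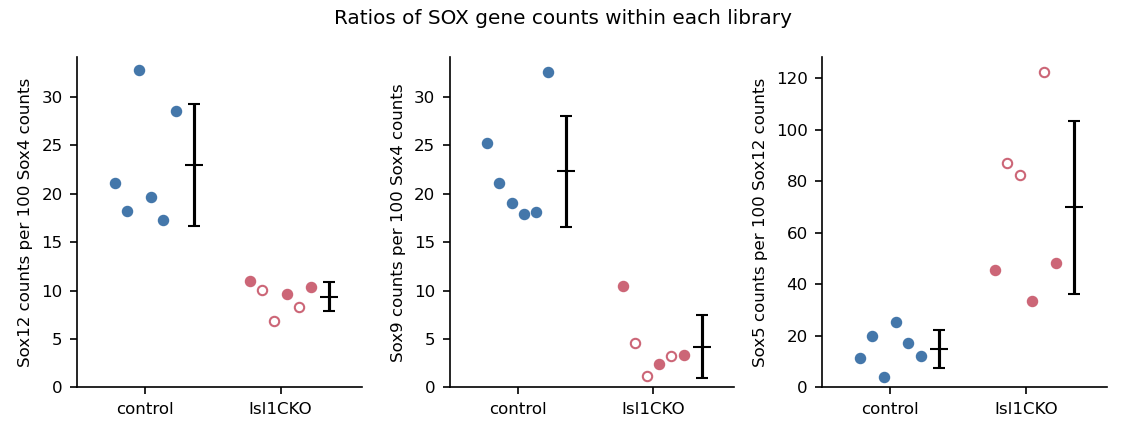
Counts of 1 SOX gene per 100 counts of another in each library, on linear axes from 0, with open circles for the Isl1CKO libraries that held transcripts of both sexes and black bars for the mean ± SD (n = 6). For Sox12 and Sox9 per 100 Sox4 counts the Isl1CKO libraries lie below all controls, and for Sox5 per 100 Sox12 counts they lie above.

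The sequence before the start of the 3 SOXC genes is shown because Sox4 and Sox12 moved in opposite directions. Each is the 250 bases upstream of the RefSeq start on GRCm38.p6, on the minus strand and 5′ to 3′. Capitals mark TAAT, the core recognised by homeodomain proteins such as ISL1, and CANNTG, the E-box recognised by basic helix-loop-helix proteins such as NEUROD1, each searched on both strands, and no match of the one overlapped a match of the other.
Sox4 (chr13:28953700-28953949): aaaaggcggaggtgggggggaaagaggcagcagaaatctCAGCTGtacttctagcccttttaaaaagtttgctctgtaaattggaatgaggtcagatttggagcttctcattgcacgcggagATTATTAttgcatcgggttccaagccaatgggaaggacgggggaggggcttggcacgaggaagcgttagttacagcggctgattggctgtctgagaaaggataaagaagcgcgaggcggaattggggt
Sox11 (chr12:27342719-27342968): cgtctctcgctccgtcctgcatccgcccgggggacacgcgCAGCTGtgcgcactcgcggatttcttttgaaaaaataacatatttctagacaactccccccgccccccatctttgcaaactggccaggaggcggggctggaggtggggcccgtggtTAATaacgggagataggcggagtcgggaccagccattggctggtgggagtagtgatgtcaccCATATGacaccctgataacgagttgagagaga
Sox12 (chr2:152398047-152398296): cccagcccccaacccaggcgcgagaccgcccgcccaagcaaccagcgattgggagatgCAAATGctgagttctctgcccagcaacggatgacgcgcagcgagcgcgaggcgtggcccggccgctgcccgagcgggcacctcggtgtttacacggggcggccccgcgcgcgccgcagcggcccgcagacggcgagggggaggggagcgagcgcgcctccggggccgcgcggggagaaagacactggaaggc
Sox4 held 2 matches of TAAT, which overlap each other, Sox11 held 1 and Sox12 held 0. CANNTG occurred 1 time before Sox4, 2 times before Sox11 and 1 time before Sox12. Among all 32851 RefSeq windows of this length, 54.9% held TAAT and 66.2% held CANNTG, so both are common letters and a match is only a description. The windows differed in base composition, with 50.8%, 58.0% and 74.4% G or C in Sox4, Sox11 and Sox12, where the median of all windows was 52.4%. Windows were found for 9 of the 10 members, 14 in all, and not for Sox9. TAAT was present in 6 of the 14 and CANNTG in 10, and of the SOX core motifs ACAAT was present in 4 and ACAAAG in 6, against 27.7% and 16.5% of all windows. Sox6 had 6 of the 14 windows, so these shares lean on that gene.

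Of the SOXD genes, Sox5 and Sox6 were higher and Sox13 was not called. Sox5 (ENSMUSG00000041540, chr6:143828425-144781977, minus strand), which in the developing cortex shapes the timing and identity of neurons, measured 14.9, 26.5, 20.2, 8.22, 31.2 and 15.9 CPM in Isl1CKO 1 to 6. Controls 1 to 6 measured 6.40, 7.99, 3.59, 11.9, 6.66 and 7.69 CPM. Isl1CKO 4 was the 1 Isl1CKO library within the control range, and the libraries Isl1CKO 2, 3 and 5 were the 3 highest. Sox5 rose 2.64-fold, from 7.36 ± 2.7 to 19.5 ± 8.36 CPM (SD, n = 6), or 1.40 in log2 units, SE 0.33 (edgeR adjusted p = 0.0126). Without Isl1CKO 2, 3 and 5 the log2 fold change was 0.81 and the call was lost (edgeR adjusted p = 0.293). Its annotation shares 1330 exon bases with Sox5os1 on the opposite strand, which was not analysed here.

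Sox6 (ENSMUSG00000051910, chr7:115470872-116038796, minus strand), which often acts together with Sox5, was near the floor in controls. It measured 6.10, 4.81, 3.46, 3.06, 9.85 and 0.305 CPM in Isl1CKO 1 to 6, from 77, 62, 46, 41, 135 and 4 counts. Controls 1 to 6 held 3, 7, 11, 2, 4 and 6 counts, or 0.148 to 0.918 CPM. All Isl1CKO libraries but Isl1CKO 6, which lay within the control range, exceeded every control. Sox6 averaged 4.60 ± 3.22 CPM against 0.432 ± 0.272 CPM (SD, n = 6), a fitted rise of 10.5-fold, or 3.39 in log2 units, SE 0.68 (edgeR adjusted p = 0.00435). The call was absent under limma-voom with sample weights (log2 fold change 3.12, limma adjusted p = 0.112) and without Isl1CKO 2, 3 and 5 (2.84, edgeR adjusted p = 0.0853). The antisense gene Sox6os lies within Sox6 and shares no exon bases with it. It had 10 counts over the Isl1CKO libraries, in 3 of them, and 0 in every control. Every gene total in the count table is at least 10, so Sox6os has a row only through its Isl1CKO counts. Its counts are a description only.

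Sox13 (ENSMUSG00000070643, chr1:133382303-133424377, minus strand), the third SOXD gene, measured 3.33, 2.02, 0.903, 0.149, 3.06 and 0.457 CPM in Isl1CKO 1 to 6. The 6 controls, in order, measured 4.24, 6.73, 9.43, 1.26, 1.98 and 6.59 CPM. Each Isl1CKO library lay below the control median, and the ranges overlapped. Its difference of -1.6 in log2 units, SE 0.67, did not pass (edgeR adjusted p = 0.161), nor did it in any of 23 other settings, where the adjusted p ran from 0.0870 to 0.327. Per 100 Sox12 counts there were 33.3 to 122 Sox5 counts in the Isl1CKO libraries and 4.17 to 25.3 in controls, ranges that did not overlap. These ratios put a gene that rose over a gene that fell.

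**Figure D4:**
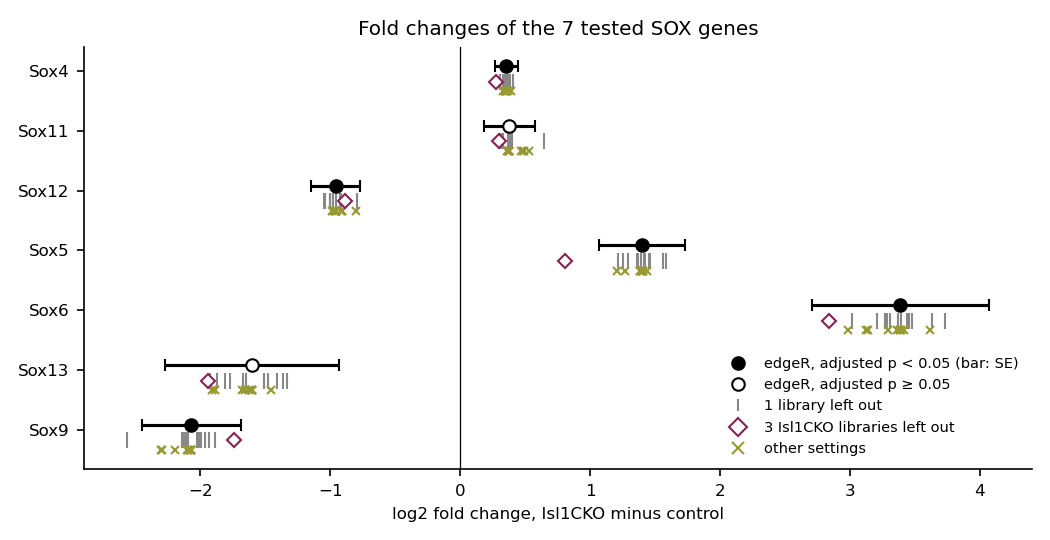
Log2 fold change of the 7 tested SOX genes, Isl1CKO minus control, with the standard error of the edgeR fit as bars and filled circles for an adjusted p under 0.05. Grey ticks show fits with 1 library left out, diamonds the fit without Isl1CKO 2, 3 and 5, and crosses the other settings, and no gene changes sign.

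Of the SOXE genes, Sox9 had the largest fall among the tested members. Sox9 (ENSMUSG00000000567, chr11:112782224-112787760, plus strand, 3 exons) acts in the otic placode and its epithelium, in cartilage and in glia. It measured 30.9, 14, 4.29, 6.27, 9.85 and 10.7 CPM in Isl1CKO 1 to 6. In controls 1 to 6 it measured 67.2, 46.0, 49.8, 42.7, 40.6 and 72.7 CPM. The groups did not overlap, and Isl1CKO 1 stood closest to the controls. Sox9 fell 4.20-fold, from 53.2 ± 13.5 to 12.7 ± 9.55 CPM (SD, n = 6), or -2.07 in log2 units, SE 0.38 (edgeR adjusted p = 0.00228). It was called in all 24 other settings, with log2 fold changes from -2.56 without Isl1CKO 1 to -1.74 without Isl1CKO 2, 3 and 5 (edgeR adjusted p of 5.78e-05 and 0.0439). Per 100 Sox4 counts there were 1.2 to 10.4 Sox9 counts in the Isl1CKO libraries and 17.9 to 32.5 in controls, again a gene that fell over a gene that rose.

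Sox8 (ENSMUSG00000024176, chr17:25565892-25570686, minus strand), a SOXE gene of oligodendrocytes and the neural crest, was close to undetected. It had 1 to 4 counts in each Isl1CKO library and 1 to 8 in each control, and it shares 329 exon bases with 2810468N07Rik on the opposite strand. At this depth a difference in Sox8 was not detectable. Sox10, the third SOXE gene and a marker of Schwann and satellite glia, measured 5.46, 13.6, 0.0753, 4.85, 9.48 and 0.229 CPM in Isl1CKO 1 to 6. Controls 1 to 6 measured 0.332, 0.0740, 0.167, 1.41, 7.13 and 4.83 CPM. Both groups thus held libraries with less than 1 CPM of Sox10 and libraries with more, and its log2 fold change of 1.27 did not pass the test (edgeR adjusted p = 0.529).

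Of the SOXB genes, Sox2 (ENSMUSG00000074637, chr3:34650405-34652461, plus strand, 1 exon) had 21, 51, 2, 9, 12 and 0 counts in Isl1CKO 1 to 6. Controls 1 to 6 had 0, 1, 1, 14, 24 and 8 counts. The highest library, Isl1CKO 2, stood at 3.96 CPM, and the counts of this progenitor gene overlapped between the groups. With no filter on low counts its adjusted p was 0.722 in edgeR. Sox2ot, the noncoding gene in whose intron Sox2 lies, had 57 counts over the Isl1CKO libraries and 65 over the controls. Sox21 (ENSMUSG00000061517, chr14:118233232-118237030, minus strand, 1 exon) had 37 counts over the Isl1CKO libraries, 22 of them in Isl1CKO 6, and 5 over the controls, with at most 2 in a library. It did not pass with no filter (edgeR adjusted p = 0.227), and 713 of its exon bases lie under Gm4675, a noncoding gene on the opposite strand with 81 and 39 counts.

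RNA of other cells was looked for with marker lists, since bulk counts cannot tell fewer cells of a type from less RNA per cell. Of 12 Schwann cell and satellite glia markers, Sox10 among them, 10 had a row. They summed to 235, 513, 37.6, 155, 407 and 39.0 CPM in Isl1CKO 1 to 6. In controls 1 to 6 they summed to 68.2, 32.1, 37.8, 127, 239 and 164 CPM. None of the 7 tested genes of this list was called, and Gfap and Mia were not analysed here. The highest Sox2 and Sox10 values came from Isl1CKO 2, the library with the most glia marker RNA, and both genes were low in the libraries with the least. Sox6 was highest in Isl1CKO 5, 1 and 2 (9.85, 6.10 and 4.81 CPM), which held 407, 235 and 513 CPM of glia markers. Isl1CKO 6, with 0.305 CPM of Sox6, held 39.0 CPM of them. Isl1CKO 4 held 3.06 CPM of Sox6 at 155 CPM of glia markers and Isl1CKO 3 held 3.46 CPM at 37.6 CPM. Control 5 held 0.317 CPM of Sox6 at 239 CPM. With the glia marker level as a covariate, the 5 calls remained, at 2.99 for Sox6 (edgeR adjusted p = 0.0251) and 1.27 for Sox5 (edgeR adjusted p = 0.0286) in log2 units. That fit holds only 1 summed marker level, and the part of glia RNA in the 5 calls was not tested.

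**Figure D5:**
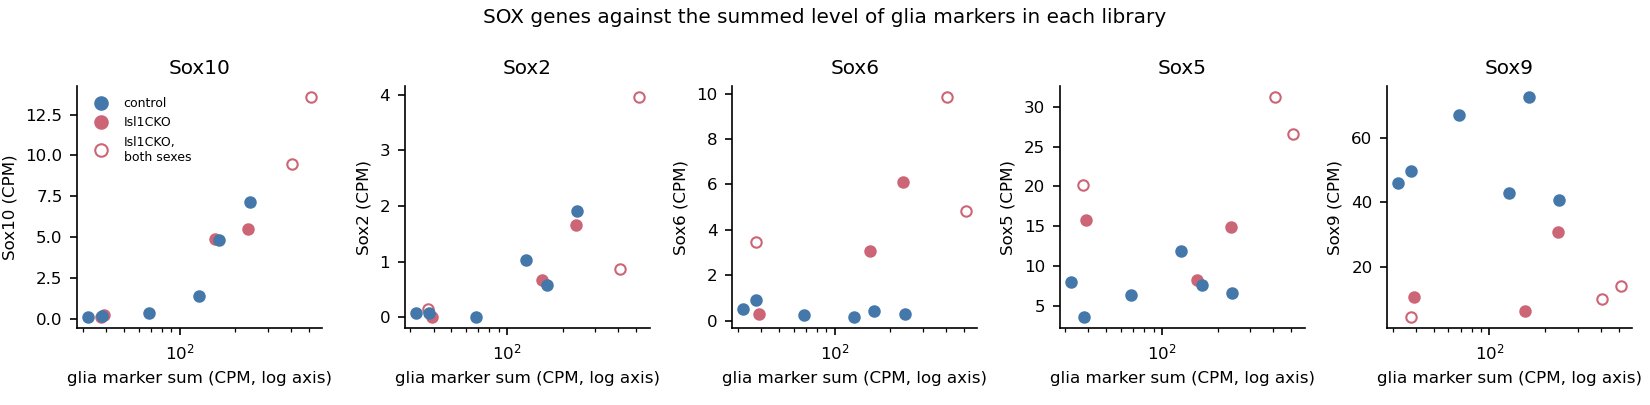
Level of Sox10, Sox2, Sox6, Sox5 and Sox9 (CPM, linear axes) against the summed CPM of 10 glia markers (log axis) in each of the 12 libraries. Open circles mark the Isl1CKO libraries that held transcripts of both sexes. Sox10 is itself a glia marker and is highest in Isl1CKO 2 at 13.6 CPM, whereas Sox9 is above 40 CPM in all controls, whose marker sums run from 32.1 to 239 CPM, and the 2 libraries with higher sums are Isl1CKO 2 and 5.

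Markers of the otic epithelium and supporting cells, where Sox2, Sox9 and Sox21 are also expressed, summed to 5.94 to 14.8 CPM in the Isl1CKO libraries and 2.25 to 7.23 CPM in controls. Of these 12 genes 2 were tested and 0 called, and 5 were under 1 CPM in every library. The part of this RNA in the Sox9 result was not tested. Mesenchyme markers summed to 72.0 to 122 CPM in the Isl1CKO libraries and 38.7 to 85.1 CPM in controls, with 2 of 4 tested genes higher (Tbx18 and Col3a1). The median log2 fold change of these 4 genes was 2.12. Tbx18 averaged 39.5 CPM in the Isl1CKO libraries against 1.09 CPM in controls. Col1a2, which was not called, averaged 4.67 against 1.30 CPM (edgeR adjusted p = 0.0602). Pou3f4, also not called, went the other way, at 27.4 against 52.9 CPM. The part of mesenchyme RNA in the Sox5 and Sox6 rises was not tested. Hair cell marker sums overlapped between the groups, at 289 to 576 and 247 to 502 CPM, with Atoh1 not analysed here, and of 4 tested genes Rasd2 was lower. Most of that sum was Myo6, and endothelial markers summed to 31.0 CPM or less. Macrophage markers ran from 1.24 to 694 CPM in the Isl1CKO libraries and 1.85 to 347 CPM in controls. With their summed level as a covariate the 5 calls remained, and the part of macrophage RNA in these calls was not tested. Proliferation genes, which include Mki67 and Top2a, summed to 138 to 529 and 124 to 276 CPM with 0 of 12 called, and were highest in Isl1CKO 2.

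Other genes that work with SOX factors were read from lists of 70 genes in all, of which 50 were tested and 11 called, 4 higher and 7 lower (22.0%, against 10.2% of all tested genes). Among partners of SOX proteins and factors of otic neurogenesis, 5 of 20 were called. Nhlh2, a basic helix-loop-helix factor of young neurons, rose 2.11-fold from 429 ± 61.4 CPM (SD, n = 6; edgeR adjusted p = 8.66e-06). Chd7, a chromatin remodeller that binds SOX2, fell 1.6-fold from 302 ± 20.0 CPM (SD, n = 6; edgeR adjusted p = 3.76e-04). Neurod1 was also higher, and Pou3f2 and Gata3 were lower. The median log2 fold change of this list was 0.0063, close to that of all genes. For the immature neuron, progenitor and cartilage lists below it was 0.20, 0.40 and -0.19.

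Of 12 genes of immature neurons that are linked to SOXC factors, 1 was higher and 3 lower. Stmn2, a regulator of microtubules in growing axons, rose 1.46-fold from 1897 ± 183 CPM (SD, n = 6; edgeR adjusted p = 6.08e-04). The adhesion gene Nrcam fell 1.5-fold from 378 ± 35.0 CPM (SD, n = 6; edgeR adjusted p = 4.47e-04), and Mapt and Elavl4 were the other two that fell. Of 11 tested progenitor genes linked to SOXB1 factors, 1 was higher and 1 lower. Ccnd1, a cyclin of the G1 phase, rose from 35.4 ± 17.3 to 164 ± 102 CPM and the intermediate filament gene Vim fell from 699 ± 176 to 393 ± 42.3 CPM (SD, n = 6; edgeR adjusted p of 0.00174 and 8.51e-04). Of the cartilage genes that SOX9 activates with SOX5 and SOX6, 6 were tested and 0 passed, too few to read against the 10.2% of all genes, 0 of them also at an unadjusted p under 0.05, and under DESeq2 0 passed. Of the SOX genes outside the 10, Sox30 had 40 and 26 counts and Sox15 had 5 and 8 counts over the Isl1CKO and control libraries.

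For each called member, the genes whose pattern across libraries was most like it were ranked by Pearson's r of log2 CPM centred on the group means, over the 12 libraries and 9595 or 9596 genes. These are the highest of many values from libraries that share depth and cell makeup, and they describe these libraries only. For Sox4 they were Aff4, Gas5 and Zfhx3, with r from 0.861 to 0.876. For Sox5 they were Zfp41, Katnal2 and Bloc1s5, with r from 0.859 to 0.872, of which Zfp41 and Bloc1s5 were also higher in the Isl1CKO libraries (by 0.49 and 0.46 in log2 units, with edgeR adjusted p of 0.0172 and 0.0221). For Sox6 they were Gm42772, Vldlr and Paip2b, with r from 0.903 to 0.944, and Gm42772 was itself lower between the groups (log2 fold change -2.38, edgeR adjusted p = 0.0105). For Sox9 they were Zfp511, Ggt7 and Fstl1, with r from 0.864 to 0.923. Ggt7 was lower and Fstl1 higher in the Isl1CKO libraries, by -0.63 (edgeR adjusted p = 0.00524) and 1.49 (edgeR adjusted p = 1.23e-04) in log2 units. For Sox12 they were Ift27, Cenpx and Rps27a, with r from 0.887 to 0.929, none of which passed the test between the groups. No other SOX gene was among these genes.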

How the data were processed

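RNA was measured in 12 libraries of 100 sorted cells each. The authors deposited 1 table of whole-number counts per Ensembl gene, not normalized, in which every gene total is at least 10. The submitters' processing notes name cutadapt 1.18, Bowtie 1.2.2, STAR 2.7.0c, featureCounts and the build GRCm38.p6, with no role or order. The strand setting is not given in the sources used here. The 0 unmapped columns left all 12 in use.

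Symbols were matched for 25620 of 25674 identifiers, and positions are those of GENCODE M21 on GRCm38. Genes were kept by filterByExpr with a minimum count of 10, scaled by TMM and compared with the robust quasi-likelihood F-test of edgeR 4.0.16 under R 4.3.3 with no covariate, adjusted by Benjamini-Hochberg over all tested genes at 0.05. The standard error is the absolute log2 fold change divided by the square root of F. Levels per kilobase use the union of annotated exons. Alternatives used DESeq2 1.42.0, limma 3.58.1 and other settings. The fits were tested on simulated data. Floors cover counting error only, since PCR reads without molecular identifiers are not independent molecules.

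Members, lists and tests were chosen with earlier results of these data known. The text names all members, the other SOX genes with a row, overlapping noncoding genes with a row, Isl1, the 2 genes of smallest p past the threshold from each list, and the 3 genes most like each called member among those whose mean log2 CPM reached 3. Genes named beyond that rule (marker genes, Neurod1, Pou3f2, Gata3, Mapt and Elavl4) were chosen after their values were seen.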

Additional observations from a re-analysis of the deposited data

Results flagged for a closer look

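Of 36 group values of SOX genes, Isl1 and overlapping noncoding genes, 7 held a library that stood apart from the remaining 5 under Dixon's criterion. At 1 in 20 about 1.8 would do so, but that rate is for normally distributed values. Low counts are not so distributed, so 1.8 does not measure chance for them. Sox11 stood at 3666 CPM in control 2, against 1392 to 2074 CPM in the other controls. Sox9 stood at 30.9 CPM in Isl1CKO 1, against 4.29 to 14 CPM in the other Isl1CKO libraries. The other 5 rest on few counts: Sox8 at 0.593 CPM in control 4 (8 counts), Sox15 at 0.501 CPM in control 3 (6 counts), Sox2ot at 2.20 CPM in control 6 (30 counts), 2810468N07Rik at 2.72 CPM in Isl1CKO 2 (35 counts) and Gm4675 at 1.85 CPM in control 2 (25 counts).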

How the results depend on the processing

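Without Isl1CKO 2, 3 and 5, the number of members called went from 5 to 1 and that of all genes from 1511 to 767; the cause was not tested. The other settings called 4 to 6 members. Sox6 was not called with limma-voom (adjusted p = 0.112) and not tested at a mean of at least 5 CPM. With the replicate number as a block, 4 members and 1450 genes were called and Sox5 was not (log2 fold change 1.38, edgeR adjusted p = 0.0541). For same-numbered libraries, the correlations of their deviations from the group means ran from -0.056 to 0.15. Of the Isl1CKO libraries, 2 of 6 correlated best with their own number. These values cannot decide whether same-numbered libraries were paired, since libraries of a common litter or preparation need not correlate. Without control 2, Sox11 was called (log2 fold change 0.65, edgeR adjusted p = 8.40e-04). With a Y-linked covariate, chosen after seeing the data, the same 5 members were called. No log2 fold change of a tested member changed sign. With lengths of the longest transcript, also chosen later, Sox5 stood at 1.02 in place of 0.512 CPM per kilobase in controls, and Sox6 and Sox13 exchanged places in the Isl1CKO order. Depth limits Sox8 and Sox21, which had at most 8 and 22 counts in a library, and Sox2, which had at most 51.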
